A study of Mus musculus with 12 samples.

Results

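The comparison described here is the difference between 2 responses to uniSTING mRNA: the change from Mock to uniSTING in libraries labelled DC2.4, minus the same change in libraries labelled 4T1. It uses the 8 mRNA-treated libraries of the 12 in the series, with 2 libraries in each of 4 groups, and the libraries were chosen by their labels alone. The fit also held the other libraries, titled DC2.4 cells with EXOmock or EXOuniSTING, so they enter each SE and p-value. Below, libraries labelled DC2.4 are the mRNA-treated ones. DC2.4 is a dendritic cell line made from mouse bone marrow and 4T1 is a mouse mammary carcinoma line, and both are described as wild type. The uniSTING groups received mRNA encoding uniSTING, a mimic of the adaptor STING according to the series title, and the Mock groups received mRNA encoding EGFP, a fluorescent protein. All 4 groups were therefore given an mRNA, carried either by a transfection agent or by lipid nanoparticles, and the labels do not say which carrier or what time applied to which library. The 2 libraries of a group are called preparation 1 and preparation 2, and nothing says that they came from separate cultures, so each p-value reflects only how far such libraries vary, and that variation may be technical.

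The marker genes ran against the line labels. In the 4 libraries labelled DC2.4, the epithelial adhesion gene Epcam had 5041 to 7971 counts and the keratin gene Krt8 had 22211 to 32672, whereas Ptprc, which encodes the leukocyte antigen CD45, had 0 to 19 and Spi1, which encodes a myeloid transcription factor, had 1 to 5. Under the 4T1 label the order was exchanged, with 5547 to 8490 counts of Ptprc and 3390 to 4810 of Spi1 in the 4 libraries, against 0 to 5 for Epcam and 0 to 15 for Krt8. Summed over 20 epithelial markers, the level was 5762 to 6049 CPM (counts scaled to a common library total) under the DC2.4 label and 171 to 173 CPM under the 4T1 label. The sum over 25 leukocyte markers was 170 to 235 CPM under the DC2.4 label and 11679 to 12073 CPM under the 4T1 label. Groups are named by their labels throughout, and "under the DC2.4 label" means the mRNA-treated libraries that carry it, which hold an epithelial marker profile. Exchanging the labels of the lines would change the sign of every difference given below.

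STING sits on the endoplasmic reticulum and is activated by the cyclic dinucleotide that the DNA sensor cGAS makes. It then recruits the kinase TBK1, which phosphorylates the transcription factor IRF3, and the pathway also reaches NF-kB. IRF3 drives type I interferon genes, and secreted interferon acts through JAK kinases and a transcription factor complex that holds STAT2 and IRF9 on interferon-stimulated genes, whose products restrict viruses and amplify detection. In dendritic cells the same axis raises antigen presentation and cytokine output, and in carcinoma cells it is often reduced.

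Library totals were 17.5 to 26.0 M counts, and 3 counts, taken as the floor of detection, equalled 0.115 to 0.171 CPM. These limits cover counting error only. Over 10482 to 10720 genes with at least 50 counts in each library, the 2 libraries of a group differed with a mean chi-square of 1.71 to 2.30 per gene, where counting alone gives about 1. The same measure between Mock and uniSTING was 37.36 under the DC2.4 label and 15.41 under the 4T1 label in preparation 1. Transcripts typical of other tissues were found in preparation 1: Ins2, an insulin gene, had 854 to 2117 counts and Sftpc, a lung surfactant gene, 421 to 729, against 0 in each preparation 2 library. Markers that ran high under the other label were also met more often in preparation 1. Of 20 epithelial markers, 11 were over 3 counts in each preparation 1 library labelled 4T1, against 2 and 3 in preparation 2. Of 25 leukocyte markers, 14 and 19 were over 3 counts in preparation 1 labelled DC2.4, against 8 in each preparation 2 library. The part of these transcripts in the differences was not tested.

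Of 14863 genes tested, the response differed between the labels for 4628 (31.1%), being higher under the DC2.4 label for 2377 genes (16.0% of genes tested) and lower there for 2251 (15.1%), by edgeR's quasi-likelihood test of the interaction with Benjamini-Hochberg adjustment at 0.05. The spread between libraries was small, with a biological coefficient of variation of 3.05%, so small differences passed. At a size of at least 2-fold, 373 genes were higher (2.51%) and 283 lower (1.90%). Of these 656 genes, 337 stood under 1 CPM on average under at least 1 of the labels: 87 under the 4T1 label alone, 122 under the DC2.4 label alone and 128 under both. In bulk libraries such as these, a change in the share of cells and a change in RNA per cell cannot be told apart.

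Most of the higher genes were genes that rose under the DC2.4 label. Of the 2377, 1063 rose there and were not called under the 4T1 label, 496 rose there and fell under the 4T1 label, 491 fell under the 4T1 label alone, and 201 rose under both but more under the DC2.4 label. Of the 2251 lower genes, 1151 fell under the DC2.4 label and were not called under the 4T1 label, 374 fell there and rose under the 4T1 label, 352 rose under the 4T1 label alone, and 239 fell under both but more under the DC2.4 label. The responses themselves counted 3094 genes up (20.8%) and 3102 down (20.9%) under the DC2.4 label, against 1878 up (12.6%) and 2331 down (15.7%) under the 4T1 label. Over the 10362 genes of at least 1 CPM on average under each label, the median absolute log2 response was 0.204 under the DC2.4 label and 0.131 under the 4T1 label. Across these genes, which are not independent replicates, Spearman's rho of the 2 responses was 0.14. A further 1067 genes changed in the same direction under both labels without a called difference between the labels.

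**Figure D1:**
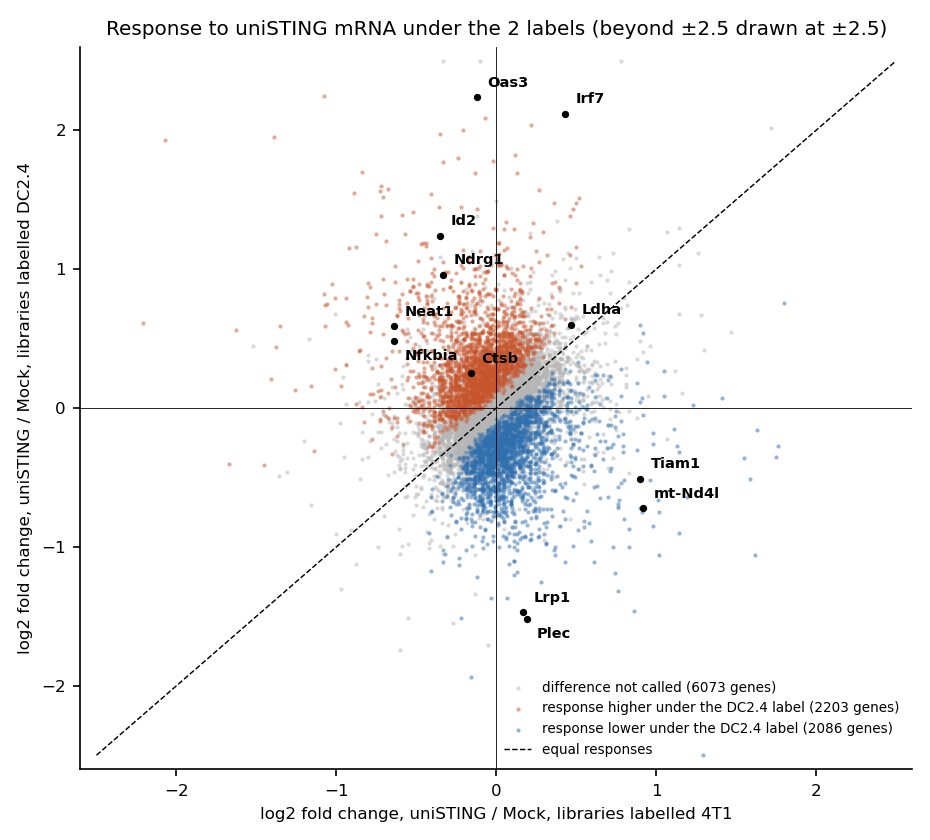
Log2 fold change of uniSTING over Mock in libraries labelled 4T1 (x axis) and DC2.4 (y axis) for the 10362 genes of at least 1 CPM on average under each label; each point is 1 gene, coloured by whether the difference was called higher (2203 genes), lower (2086) or not called (6073). Called genes lie on either side of the line of equal responses, with Irf7 and Oas3 far above it and Plec and Lrp1 far below it.

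The difference ran with gene length. The length used here is the summed exonic length that the files give for each gene. The 10362 genes were placed in 10 bins of equal size by length. The shortest bin (median 0.882 kb) had a median log2 response of 0.273 under the DC2.4 label and 0.043 under the 4T1 label, and the longest bin (median 12.454 kb) had -0.248 and -0.031. The median difference thus passed from 0.228 in the shortest bin to -0.198 in the longest. Spearman's rho with length across genes was -0.42 for the response under the DC2.4 label, -0.12 under the 4T1 label and -0.29 for the difference, and the last was -0.28 within preparation 1 and -0.27 within preparation 2. In the shortest bin 345 genes were called higher and 81 lower, whereas in the longest bin 106 were higher and 498 lower.

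The trend was therefore estimated in each library and removed before a second fit. With it removed, 2039 genes were higher (13.7%) and 2113 lower (14.2%), and rho with length was 0.01. The fits shared 1776 higher and 1822 lower genes, 1022 genes were called only with the trend kept, 546 only with it removed, and 8 passed from lower to higher. At 2-fold or more in both fits, 279 genes were higher and 241 lower. After removal the longest bin held 267 higher and 279 lower genes. Why the trend arose was not tested, and a response that truly depends on length would be removed with it, so for named genes both values are given at least where they differ by over 1.5 times or the call changes, and smaller gaps between the fits are not all printed. In the text below "with length removed" names the second fit.

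**Figure D2:**
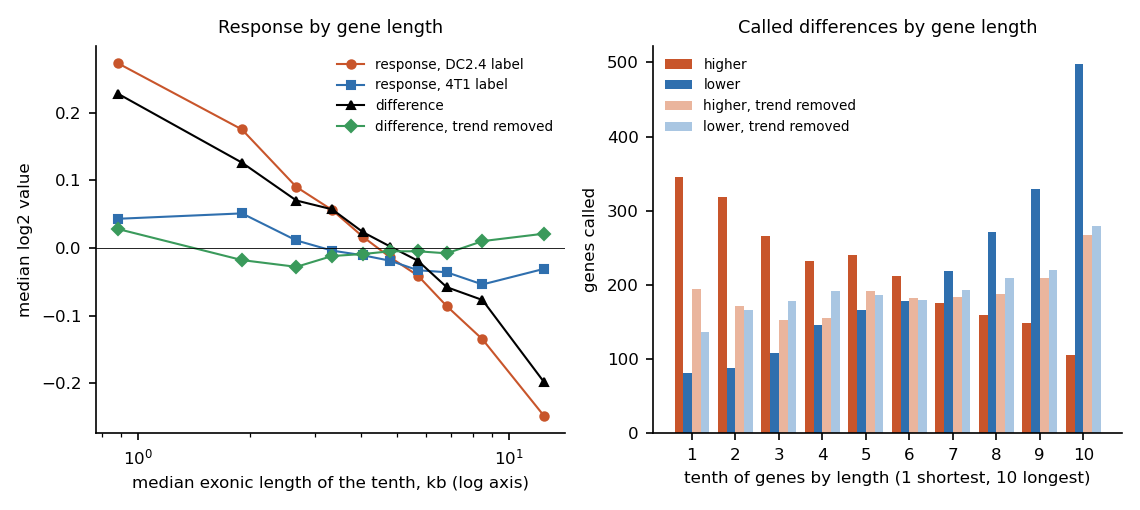
Left, median log2 response under each label, median difference, and median difference with the length trend removed, against the median exonic length of each of 10 bins of 10362 genes (log axis, kb). Right, number of genes called higher and lower in each bin, with the trend kept and removed; the tilt from 345 higher and 81 lower in the shortest bin to 106 and 498 in the longest is levelled after removal.

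The largest differences in the higher direction that passed in both fits were carried by genes of different functions. Arrb1, which encodes a beta-arrestin that uncouples receptors from G proteins, stood at 2.11 and 0.907 CPM in Mock and 5.78 and 4.35 CPM in uniSTING under the DC2.4 label, and at 155 and 148 against 129 and 131 CPM under the 4T1 label. It was thus near the bottom of its range wherever it rose, and its difference was 2.04 ± 0.25 (log2, SE; edgeR adjusted p = 2.96e-05). Ankrd37, a small ankyrin protein gene known as a hypoxia target, went from 2.23 and 1.41 to 6.9 and 6.98 CPM under the DC2.4 label and from 9.29 and 9.68 to 6.87 and 8.28 CPM under the 4T1 label, a difference of 2.32 ± 0.26. Eno2, a glycolytic enolase gene, went from 2.51 and 2.72 to 8.49 and 9.25 CPM under the DC2.4 label and stayed between 18.9 and 19.9 CPM in the 4 libraries labelled 4T1 (difference 1.80 ± 0.14 on the log2 scale).

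Id2, which encodes an inhibitor of basic helix-loop-helix factors, had 8.28 and 7.03 CPM in Mock and 16.7 and 18.5 CPM in uniSTING under the DC2.4 label. Under the 4T1 label it had 75.9 and 76.5 CPM in Mock and 61.2 and 60.5 CPM in uniSTING, so the groups did not overlap in either line and moved in opposite directions (difference 1.59 ± 0.11, edgeR adjusted p = 1.35e-07). Neat1 is the long non-coding RNA that builds paraspeckles. It rose from 184 and 182 to 275 and 268 CPM under the DC2.4 label and fell from 67.7 and 67.9 to 47.8 and 41.9 CPM under the 4T1 label. Its difference was 1.22 ± 0.06, and 1.61 with length removed, since it is a gene of 20771 exonic bases. Phf11d, an interferon-responsive PHD finger gene, went from 2.17 and 2.9 to 7.8 and 8.58 CPM under the DC2.4 label and from 12.4 and 14 to 15.1 and 14.6 CPM under the 4T1 label, a difference of 1.56 ± 0.18. Bst1, which encodes a NAD-cleaving ectoenzyme, rose from 2.97 and 2.86 to 4.67 and 6.22 CPM under the DC2.4 label and fell from 5.87 and 6.82 to 4.89 and 4.2 CPM under the 4T1 label (difference 1.46 ± 0.24). Sumo2, a ubiquitin-like modifier gene, is uncertain because close copies share its sequence. It had 50.3 CPM in one uniSTING library labelled DC2.4 and 92.9 CPM in the other, over 18.9 and 17.8 CPM in Mock, and its difference was 2.20 ± 0.37.

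In the lower direction, very long genes led among the genes picked in the same way, with the length trend kept. Plec (chr15:76055174-76116774, GRCm39), which encodes the cytoskeletal linker plectin, had 293 CPM in both Mock libraries labelled DC2.4 and 104 and 98.1 CPM in uniSTING. Under the 4T1 label it had 294 CPM in both Mock libraries and 339 and 345 CPM in uniSTING. The lines thus began at the same level and parted in opposite directions, by -1.71 ± 0.04 (edgeR adjusted p = 4.61e-12) and by -1.37 with length removed. Lrp1 (chr10:127374030-127457017), a large endocytic receptor gene, fell from 87.4 and 87.1 to 32.8 and 29.6 CPM under the DC2.4 label and rose from 887 and 899 to 1016 and 1025 CPM under the 4T1 label (difference -1.64 ± 0.05, and -1.30 with length removed). Ubr4, a giant ubiquitin ligase gene, fell from 135 and 132 to 55.2 and 55.0 CPM under the DC2.4 label and rose from 225 and 215 to 271 and 273 CPM under the 4T1 label. Its difference was -1.54 ± 0.04, and -1.20 with length removed.

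Other genes in the lower direction were not exceptionally long, and with length removed Slc22a21 (-1.60) and Farp2 (-1.43) stood below Plec. Tiam1, which encodes an activator of the GTPase RAC1, fell from 31.6 and 32.6 to 21.5 and 22.8 CPM under the DC2.4 label and rose from 5.59 and 5.95 to 10.0 and 11.9 CPM under the 4T1 label (difference -1.41 ± 0.16). Farp2, another guanine nucleotide exchange factor gene, had 5.83 and 8.67 against 4.94 and 4.23 CPM under the DC2.4 label and 5.65 and 6.23 against 10.0 and 10.7 CPM under the 4T1 label (difference -1.44 ± 0.24). Slc22a21, a carnitine transporter gene, had a difference of -1.55 ± 0.29. It fell from 7.03 and 5.63 to 3.29 and 3.11 CPM under the DC2.4 label and rose from 3.75 and 2.86 to 5.24 and 4.77 CPM under the 4T1 label. Inafm1 fell from 6.0 and 6.62 to 2.92 and 3.43 CPM under the DC2.4 label, with 17.5 to 20.4 CPM in the libraries labelled 4T1 (difference -1.07 ± 0.16). Ppih, a spliceosomal peptidyl-prolyl isomerase gene, rose under both labels, to 14.1 and 17.3 CPM from 9.26 and 9.62 under the DC2.4 label and to 12.5 and 18.2 CPM from 6.32 and 2.74 under the 4T1 label. Its difference of -1.04 ± 0.37 rested on the second Mock library labelled 4T1: without it the difference was -0.51 (edgeR adjusted p = 0.256), and -1.70 without the first. The call was also lost without the second uniSTING library labelled 4T1 (-0.72), either Mock library labelled DC2.4 (-1.07 and -1.02) or the first uniSTING library labelled DC2.4 (-0.91), with adjusted p-values of 0.0843 to 0.206, and by DESeq2 (adjusted p = 0.188).

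Interferon-stimulated genes responded mainly under the DC2.4 label. This list and the gene lists below were chosen with earlier results of these data known. Of 60 such genes listed, 57 passed the filter on low counts. Of these, 44 rose and 2 fell under the DC2.4 label, and 13 rose and 6 fell under the 4T1 label. The difference was called higher for 32 and lower for 3, with a median of 0.58 against 0.01 over all genes tested, and 0.57 with length removed (30 higher and 2 lower). Of the 32, 22 rose under the DC2.4 label alone, 6 rose under both, 3 rose under the DC2.4 label and fell under the 4T1 label, and 1 fell under the 4T1 label alone. The Mock level was higher under the 4T1 label for 20 of the 32. Summed over the 57 genes, the level went from 1138 and 1139 CPM to 1526 and 1491 CPM under the DC2.4 label and from 1530 and 1510 CPM to 1605 and 1587 CPM under the 4T1 label, so the treated libraries labelled DC2.4 came close to the Mock libraries labelled 4T1.

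Among transcription factors of the interferon response, 4 of 5 had a higher difference. Irf7 (chr7:140842619-140846394, GRCm39), which encodes the factor that amplifies interferon production, had 1.6 and 2.4 CPM in Mock and 9.66 and 7.94 CPM in uniSTING under the DC2.4 label. Under the 4T1 label it had 5.76 and 6.31 CPM in Mock and 8.71 and 7.93 CPM in uniSTING. The log2 response was 2.12 ± 0.17 under the DC2.4 label and 0.43 ± 0.15 under the 4T1 label, and the difference was 1.69 ± 0.23 (edgeR adjusted p = 6.7e-05). The treated groups ended at like levels from different starts.

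The other roles are shown by genes chosen after their values were seen. Of 8 sensors of foreign RNA and DNA, 6 were higher and 1 lower. Ifih1, which encodes the long double-stranded RNA sensor MDA5, rose from 21.1 and 20.3 to 32.5 and 27.5 CPM under the DC2.4 label, and had 8.78 and 9.16 against 7.64 and 7.82 CPM under the 4T1 label (difference 0.80 ± 0.15). Eif2ak2, the gene of the RNA-activated kinase PKR that halts translation, began at like levels under both labels, with 31.3 and 31.4 CPM in Mock labelled DC2.4 and 33.3 and 33.2 CPM in Mock labelled 4T1. It rose to 43.9 and 42.6 CPM under the DC2.4 label and had 31.2 CPM in both treated libraries labelled 4T1 (difference 0.60 ± 0.08, edgeR adjusted p = 3.61e-05).

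Members of the factor complex that interferon activates moved the same way. Irf9, its DNA-binding subunit gene, rose from 8.63 and 10.1 to 20.3 and 20.5 CPM under the DC2.4 label and had 12.2 to 14.2 CPM in the 4 libraries labelled 4T1 (difference 1.09 ± 0.15). Stat2, another subunit gene, had a difference of 0.53 ± 0.12. Of 5 genes of the ISG15 system, 2 were higher. Usp18, which encodes the protease that removes ISG15 and restrains the interferon receptor, rose from 0.628 and 0.408 to 3.34 and 4.59 CPM under the DC2.4 label and had 0.615 to 1.19 CPM under the 4T1 label (difference 2.48 ± 0.54). Of 8 interferon-induced GTPase genes, which act on vacuoles that hold pathogens, 3 were higher, among them Irgm2 (0.98 ± 0.24). Of 5 PARP genes and partners, 2 were higher, among them Parp9 (0.58 ± 0.09).

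Of 26 tested antiviral effectors, 15 were higher and 2 lower. Ifit1, whose product binds viral RNA lacking the host cap mark, had 3.14 and 2.31 CPM in Mock and 12.2 and 12.4 CPM in uniSTING under the DC2.4 label, and between 0.423 and 0.662 CPM in the 4 libraries labelled 4T1 (difference 2.31 ± 0.40, edgeR adjusted p = 0.000486). Oas3, a synthetase of the oligoadenylates that activate RNase L, rose from 0.857 and 1.18 to 4.03 and 5.5 CPM under the DC2.4 label, while its level under the 4T1 label was 65.9 and 64.1 CPM in Mock and 61.0 and 61.1 CPM in uniSTING (difference 2.36 ± 0.23). Oas2, its neighbour, had 0 counts in both Mock libraries labelled DC2.4, 0.849 and 0.758 CPM in uniSTING, and 2.52 to 3.66 CPM under the 4T1 label, so no fold is given. Ifi27, an interferon-induced membrane protein gene, rose under both labels, from 17.9 and 22.0 to 49.2 and 46.4 CPM under the DC2.4 label and from 41.3 and 43.7 to 54.0 and 52.7 CPM under the 4T1 label (difference 0.97 ± 0.10).

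Bst2, which encodes tetherin, a tether of budding virions, went opposite ways. It rose from 41.7 and 46.8 to 74.7 and 73.0 CPM under the DC2.4 label and fell from 107 and 114 to 95.9 and 100 CPM under the 4T1 label, a difference of 0.95 ± 0.07 (edgeR adjusted p = 2.36e-07). Ifitm3, a block to viral entry, rose under both labels, by 0.64 ± 0.04 and 0.43 ± 0.03. Its difference of 0.21 ± 0.05 came with a length of 678 exonic bases and was -0.01 with length removed, where it was not called. The Ifit, Oas and Ifitm genes have close copies, which lowers or mixes their uniquely mapped counts.

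Not every interferon-stimulated gene followed that pattern. Rsad2, which encodes viperin, rose from 1.54 and 1.5 to 5.73 and 6.42 CPM under the DC2.4 label and from 0.447 and 0.476 to 1.78 and 1.39 CPM under the 4T1 label, and the difference was 0.30 ± 0.38 (edgeR adjusted p = 0.628). Isg15, a ubiquitin-like modifier, rose from 10.3 and 11.4 to 26.3 and 25.5 CPM and from 1.4 and 1.07 to 2.95 and 2.31 CPM in the same order, a difference of 0.20 ± 0.24 (edgeR adjusted p = 0.621) that was -0.02 with length removed. These misses do not show that the responses were alike. Cmpk2, the neighbour of Rsad2, had a larger response under the 4T1 label (difference -2.68 ± 0.87), on a base of 0.0559 and 0 CPM in Mock and 0.509 and 0.423 CPM in uniSTING. Without the second Mock library labelled 4T1 its difference was -1.61 (edgeR adjusted p = 0.324), and without the first it was -4.93. The call was also lost by DESeq2 (adjusted p = 0.138), by limma-voom (0.05), and without the first uniSTING library labelled 4T1, the first Mock library or the second uniSTING library labelled DC2.4 (adjusted p = 0.0586 to 0.0691). Ifi204, a DNA-binding member of the IFI200 family, also rose more under the 4T1 label, from 4.47 and 3.33 to 7.03 and 7.89 CPM, against 55.1 and 53.5 to 69.7 and 65.6 CPM under the DC2.4 label. Its difference was -0.61 ± 0.18, and it was -0.39 (edgeR adjusted p = 0.199) without the second Mock library and -0.50 (adjusted p = 0.103) without the second uniSTING library labelled 4T1.

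**Figure D3:**
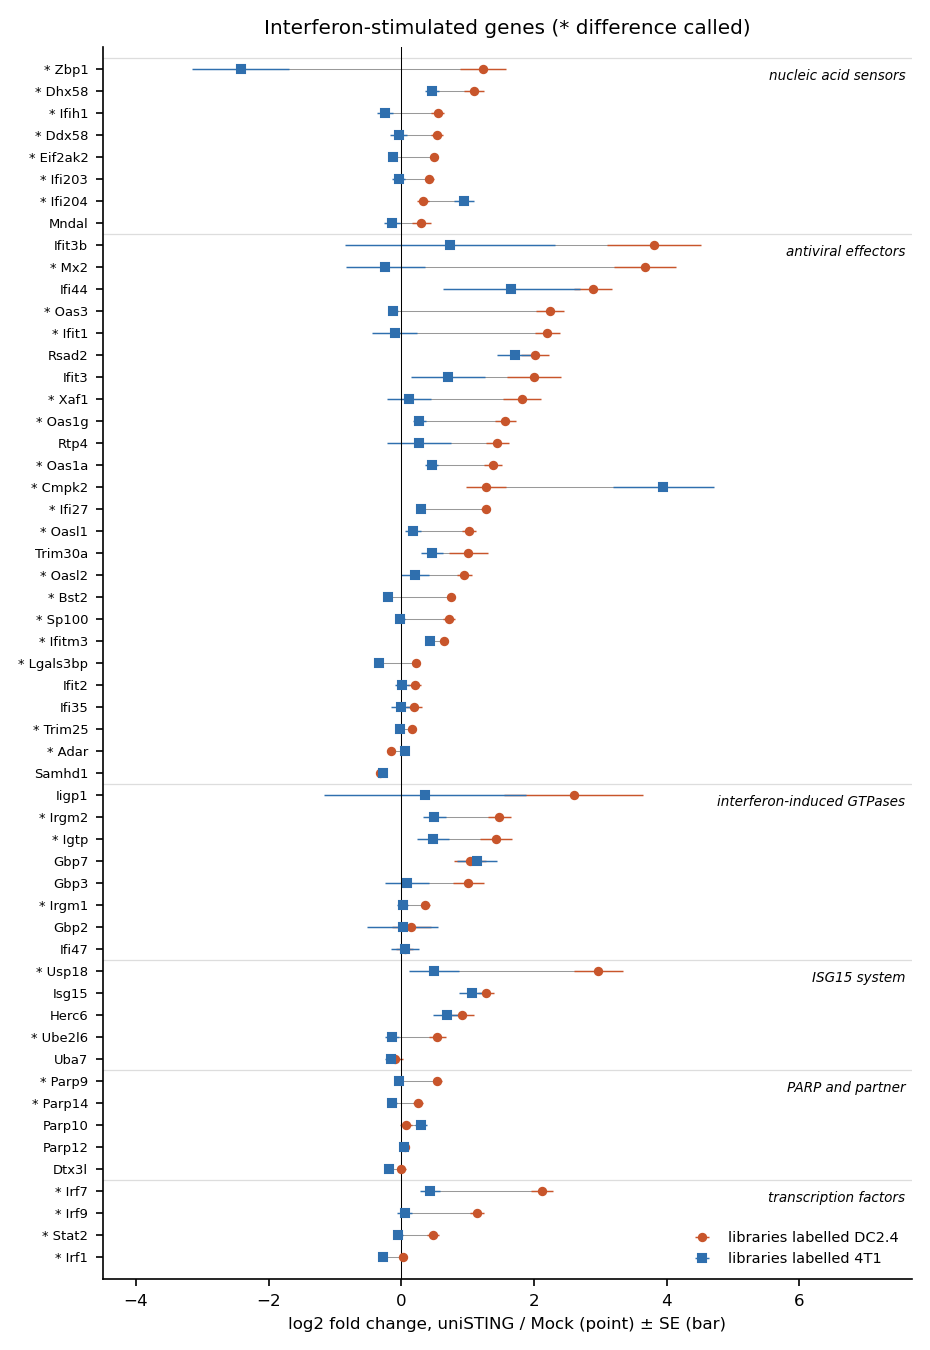
Log2 fold change of uniSTING over Mock (point) with its SE (bar) for most tested interferon-stimulated genes, grouped by role, in libraries labelled DC2.4 (circles) and 4T1 (squares); an asterisk marks a called difference, and Oas2, which had 0 counts in Mock labelled DC2.4, is left out. For most genes the circle lies to the right of the square, whereas Rsad2 and Isg15 have both to the right of 0 and Cmpk2 and Ifi204 have the order exchanged.

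Promoter sequences were read for genes whose differences part in this way: Ifit1 and Bst2, called higher under the DC2.4 label, and Isg15 and Rsad2, not called. These 4 were chosen after their values were seen. Shown are the 150 bases before the transcription start, from RefSeq on GRCm38.p6, which is an earlier assembly than that of the gene coordinates above. Capitals mark each match to GAAA, any 2 bases and GAAA, the core of the interferon-stimulated response element, or to its reverse (TTTC, any 2 bases and TTTC) where the match is on the other strand, and overlapping matches run together. The windows are Ifit1 at chr19:34640739-34640888 on the plus strand, and Bst2 at chr8:71537473-71537622, Isg15 at chr4:156200819-156200968 and Rsad2 at chr12:26456453-26456602 on the minus strand.
Ifit1: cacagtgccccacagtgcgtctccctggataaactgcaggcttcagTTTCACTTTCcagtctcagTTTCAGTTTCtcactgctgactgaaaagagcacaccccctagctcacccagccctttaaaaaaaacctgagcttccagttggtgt
Bst2: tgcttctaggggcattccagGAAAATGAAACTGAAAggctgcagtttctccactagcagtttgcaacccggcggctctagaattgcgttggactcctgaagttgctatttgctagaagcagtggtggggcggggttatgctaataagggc
Isg15: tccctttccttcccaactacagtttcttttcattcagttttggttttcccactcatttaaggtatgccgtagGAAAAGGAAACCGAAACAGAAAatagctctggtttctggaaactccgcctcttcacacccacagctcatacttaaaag
Rsad2: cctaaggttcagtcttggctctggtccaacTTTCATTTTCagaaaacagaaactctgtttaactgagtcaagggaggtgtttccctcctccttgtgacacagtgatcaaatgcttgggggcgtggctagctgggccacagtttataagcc

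All 4 windows held the core, with 2 matches each in Ifit1 and Bst2, 3 overlapping ones in Isg15 and 1 in Rsad2, and the first base of the matches lay between 66 and 130 bases before the start. In windows from 250 bases before to 50 bases after the start, the core stood in 23 of the 46 interferon-stimulated genes that matched the table (50%, Wilson 95% interval 36.1 to 63.9). It was present for 14 of 24 such genes called higher (58.3%) and for 9 of 18 not called (50%). Among genes at least 2-fold higher in both fits it stood in 10 of 143 (6.99%), among those at least 2-fold lower in 6 of 129 (4.65%), among all tested genes in 395 of 10377 (3.81%), and among all genes of the table in 3.99%. Of the 279 genes 2-fold higher and the 241 lower, 143 and 129 matched the table. With a stricter core, in which CT follows the second GAAA, the share was 28.3% of interferon-stimulated genes. It was 29.2% of those called higher and 33.3% of those not called, so the order was exchanged. The 2-fold higher genes had 3.5% and the 2-fold lower genes 0%, the last of which allows up to 2.89% by the same interval. A match describes the letters of the window and shows no binding.

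Genes of STING and interferon signalling themselves fell more often than they rose. Of 18 tested, 2 rose and 8 fell under the DC2.4 label, and 0 rose and 10 fell under the 4T1 label. Over all genes tested, 20.8% rose and 20.9% fell under the DC2.4 label, and 12.6% rose and 15.7% fell under the 4T1 label. The difference was higher for 5 and lower for 2, against 16.0% and 15.1% of all genes tested, with a list median of 0.06. Tmem173, which encodes STING itself, had 19.9 and 19.5 CPM in Mock and 21.7 and 19.9 CPM in uniSTING under the DC2.4 label, and 39.5 to 43.9 CPM in the libraries labelled 4T1 (difference 0.06 ± 0.11, edgeR adjusted p = 0.742, and -0.03 with length removed). Whether its count includes reads of the uniSTING mRNA was not tested. The kinase gene Tbk1 had a difference of 0.16 ± 0.07 (edgeR adjusted p = 0.115, and 0.046 with no filter on low counts), and the factor gene Irf3 one of -0.05 ± 0.09. The kinase gene Ikbke fell from 85.2 and 89.8 to 66.5 and 63.3 CPM under the 4T1 label, against 20.6 to 23.4 CPM under the DC2.4 label (difference 0.57 ± 0.10). The receptor genes Ifngr1 and Ifngr2, for interferon gamma, had differences of 0.52 ± 0.08 and 0.33 ± 0.08, and both fell under the 4T1 label. Jak1, which encodes a kinase of interferon receptors, had a difference of -0.21 ± 0.04.

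Interferon genes themselves could not be compared. None of 20 listed passed the filter on low counts. Ifnb1, the gene of interferon beta, had 3 and 0 counts in Mock and 4 and 8 in uniSTING under the DC2.4 label and 0 in each library labelled 4T1, which allows up to 0.115 to 0.168 CPM there.

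Targets of NF-kB parted as well, with falls under the 4T1 label and rises for part of them under the DC2.4 label. Of 43 tested, 22 were higher and 2 lower, with a median difference of 0.45 (0.38 with length removed). Under the 4T1 label 24 fell and 0 rose at the threshold, and under the DC2.4 label 17 rose and 8 fell. Of the 14 subunit and inhibitor genes, 11 were higher. Nfkbia, which encodes the inhibitor that NF-kB induces against itself, had 55.0 and 53.1 CPM in Mock and 77.3 and 72.0 CPM in uniSTING under the DC2.4 label, and 84.6 and 88.4 against 58.1 and 55.5 CPM under the 4T1 label. It rose in the one and fell in the other with no overlap between groups, and the difference was 1.12 ± 0.08 (edgeR adjusted p = 1.63e-07). Ier3, an early survival gene, went from 85.8 and 86.5 to 166 and 163 CPM under the DC2.4 label and from 33.7 and 31.6 to 24.9 and 25.7 CPM under the 4T1 label, a difference of 1.34 ± 0.06. Sqstm1, which encodes the autophagy receptor p62, went from 595 and 591 to 695 and 688 CPM and from 616 and 612 to 521 and 531 CPM in the same order (difference 0.49 ± 0.03).

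Cytokine genes were often low: of the 14 tested, 5 stood under 1 CPM on average under the DC2.4 label and 9 under the 4T1 label. Tnf had 0.171 and 0.0907 CPM in Mock and 0.743 and 0.439 CPM in uniSTING under the DC2.4 label, but 42.2 and 41.8 against 29.0 and 28.5 CPM under the 4T1 label, so its difference of 2.71 ± 0.47 set a rise near the floor against a fall from a high level. Cxcl10, a chemokine gene that interferon also induces, rose from 1.54 and 1.04 to 6.69 and 6.5 CPM under the DC2.4 label and had 0.269 to 0.458 CPM under the 4T1 label. Its difference was 2.57 ± 0.79 (edgeR adjusted p = 0.0239). That call was lost without any 1 of 4 libraries (adjusted p = 0.0619 to 0.0878, differences of 2.21 to 2.74): both Mock libraries and the second uniSTING library labelled 4T1, and the second Mock library labelled DC2.4. Il6 had 0 or 1 counts in every library. Plau, which encodes urokinase, fell under the 4T1 label from 865 and 845 to 610 and 614 CPM and had 150 to 155 CPM under the DC2.4 label (difference 0.50 ± 0.03). The 2 lower members were Csf1, the macrophage growth factor gene, which fell from 262 and 258 to 169 and 166 CPM under the DC2.4 label (difference -0.47 ± 0.04), and the gelatinase gene Mmp9, which fell there from 212 and 208 to 98.7 and 100 CPM (difference -1.42 ± 0.17).

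Of 30 tested early response genes, which respond to growth factor and stress kinases, 6 were higher and 5 lower (median 0.10, and -0.00 with length removed), shares near the 16.0% and 15.1% of all genes tested. The AP-1 gene Jun rose from 69.8 and 68.9 to 84.0 and 84.8 CPM under the DC2.4 label and fell from 198 and 202 to 146 and 161 CPM under the 4T1 label (difference 0.71 ± 0.06). The ERK phosphatase gene Dusp5 fell from 40.2 and 37.7 to 24.8 and 28.4 CPM under the DC2.4 label, with 3.89 to 5.0 CPM under the 4T1 label (difference -0.76 ± 0.16).

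For MHC class I presentation, which displays peptides of intracellular proteins, 9 of 22 tested genes were higher and 4 lower. Over all genes tested, 16.0% were higher and 15.1% lower. The median of the list was 0.06, and -0.01 with length removed. Class I chain genes led the higher ones. B2m, the common light chain gene, rose from 337 and 342 to 396 and 400 CPM under the DC2.4 label and fell from 801 and 789 to 651 and 633 CPM under the 4T1 label (difference 0.59 ± 0.03, and 0.38 with length removed). H2-K1, a heavy chain gene, rose from 139 and 136 to 184 and 181 CPM and fell from 674 and 669 to 619 and 609 CPM in the same order (difference 0.58 ± 0.03). The nonclassical gene H2-T23 rose from 22.2 and 21.7 to 38.8 and 37.1 CPM under the DC2.4 label and had 47.4 to 50.5 CPM under the 4T1 label (difference 0.77 ± 0.07). Class I heavy chains are close copies, and their counts are uncertain. Among the lower members, the immunoproteasome subunit gene Psmb10 fell under the DC2.4 label and rose under the 4T1 label (difference -0.41 ± 0.06). The trimming peptidase gene Erap1 fell under the DC2.4 label (difference -0.42 ± 0.07). Of the 8 immunoproteasome genes listed, 3 were higher and 3 lower, and 1 was higher and 4 lower with length removed.

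Glycolysis and hypoxia genes rose more under the DC2.4 label. Of 30 tested, 22 were higher and 3 lower, with a median of 0.37 and of 0.38 with length removed. Ndrg1, a stress gene that hypoxia induces, rose from 219 and 215 to 414 and 418 CPM under the DC2.4 label and fell from 156 and 161 to 131 and 127 CPM under the 4T1 label (difference 1.28 ± 0.04, edgeR adjusted p = 9.1e-11). The aldolase genes Aldoa and Aldoc had differences of 0.46 ± 0.02 and 1.17 ± 0.06, Aldoc rising from 20.3 and 19.3 to 43.4 and 45.3 CPM under the DC2.4 label with 186 to 199 CPM under the 4T1 label. Ldha, which encodes the muscle-type lactate dehydrogenase chain, rose under both labels, from 1916 and 1897 to 2844 and 2861 CPM and from 1506 and 1505 to 2120 and 2139 CPM, and its difference of 0.13 ± 0.02 was not called with length removed (0.06, edgeR adjusted p = 0.0898). Eno1, the major enolase gene, rose more under the 4T1 label (difference -0.19 ± 0.02).

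Cholesterol synthesis genes, targets of the sterol factor SREBP2, showed the same direction, with 19 of 25 higher and 3 lower (median 0.40, and 0.39 with length removed). Of the 20 enzyme genes, 17 were higher. The mevalonate decarboxylase gene Mvd rose from 48.3 and 49.7 to 95.9 and 96.6 CPM under the DC2.4 label and had 116 to 120 CPM in the libraries labelled 4T1 (difference 1.05 ± 0.05). Msmo1, a sterol demethylation enzyme gene, rose under both labels, from 317 and 322 to 538 and 532 CPM and from 152 and 149 to 168 and 167 CPM (difference 0.64 ± 0.03).

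Ribosomal protein genes, which are short and abundant, were higher for 67 of 78 and lower for 2, with a median of 0.37. With length removed 53 were higher and 2 lower, with a median of 0.27. Of the 78, 33 rose under the DC2.4 label and fell under the 4T1 label. Rpl37 rose from 330 and 319 to 534 and 548 CPM under the DC2.4 label and fell from 320 and 321 to 218 and 225 CPM under the 4T1 label, a difference of 1.32 ± 0.04 and of 1.16 with length removed. Rplp2, a stalk protein gene, did the reverse, from 393 and 392 to 352 and 357 CPM and from 328 and 329 to 416 and 415 CPM (difference -0.44 ± 0.03). Ribosomal protein genes have many processed copies, so their uniquely mapped counts are uncertain.

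Respiratory chain genes differed by where they are encoded. Of 46 nuclear genes of oxidative phosphorylation, 32 were higher and 3 lower (median 0.28, and 0.17 with length removed, where 24 were higher and 4 lower). Cox7c, a subunit gene of cytochrome c oxidase, rose from 85.4 and 84.4 to 144 in both libraries under the DC2.4 label and fell from 170 and 166 to 122 and 123 CPM under the 4T1 label (difference 1.27 ± 0.05). Of the 12 tested mRNAs of the mitochondrial genome, 0 were higher and 9 lower, with a median of -0.37, and 11 were lower with length removed (median -0.60). The transcript mt-Nd4, for a subunit of complex I, went from 1189 and 1175 to 969 and 938 CPM under the DC2.4 label and from 921 and 925 to 1199 and 1167 CPM under the 4T1 label (difference -0.62 ± 0.03). The neighbouring mt-Nd4l fell from 59.5 and 59.7 to 36.4 and 35.0 CPM and rose from 34.3 and 33.2 to 65.4 and 64.6 CPM in the same order (difference -1.64 ± 0.07). These genes overlap on the mitochondrial genome, so reads over both cannot be assigned with certainty. The share of counts from all mitochondrial genes was 1.337 and 1.315% in Mock and 1.193 and 1.173% in uniSTING under the DC2.4 label, and 2.283 and 2.259% against 2.407 and 2.378% under the 4T1 label.

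Lysosomal genes parted in opposite directions. Of 36 tested, 29 were higher and 1 lower, with a median of 0.35 (0.27 with length removed, where 28 were higher). Under the DC2.4 label 25 rose and 4 fell, under the 4T1 label 3 rose and 24 fell, and 14 did both. The sum over the list went from 4582 and 4553 to 5277 and 5215 CPM under the DC2.4 label and from 27661 and 27709 to 25255 and 25311 CPM under the 4T1 label, where lysosomal transcripts were far more abundant. Ctsb, the gene of the protease cathepsin B, rose from 268 and 267 to 312 and 315 CPM and fell from 3894 and 3928 to 3555 and 3573 CPM in the same order, a difference of 0.41 ± 0.02 (edgeR adjusted p = 2.71e-09). Npc2, a cholesterol carrier gene of the lysosome, had a difference of 0.58 ± 0.03, and Ctsz, another cathepsin gene, one of 0.52 ± 0.03 that was 0.34 with length removed. Of the 12 genes of the proton pump that acidifies the organelle, 11 were higher, among them Atp6v1a (0.42 ± 0.03). The single lower member was Gusb, for beta-glucuronidase, which fell from 142 and 146 to 124 and 121 CPM under the DC2.4 label (difference -0.19 ± 0.03).

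Cell cycle genes ran the other way. Of 40 tested, 25 were lower and 3 higher, with a median of -0.22 in both fits. Of the 20 genes of DNA replication and S phase, 14 were lower and 0 higher. Under the DC2.4 label 10 fell and 6 rose, under the 4T1 label 17 rose and 0 fell, and 6 rose under both. The replicative helicase gene Mcm6 fell from 411 and 412 to 339 and 344 CPM under the DC2.4 label and rose from 236 in both libraries to 257 and 258 CPM under the 4T1 label (difference -0.35 ± 0.03). Mki67, the proliferation marker gene, fell from 307 and 300 to 152 and 162 CPM under the DC2.4 label and had 336 to 355 CPM under the 4T1 label (difference -0.84 ± 0.04, and -0.72 with length removed). The cyclin gene Ccnb2 was among the 3 higher members (0.32 ± 0.04, and 0.14 with length removed).

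Replication-dependent histone genes were low, and 14 of 20 tested stood under 1 CPM under the 4T1 label. Their transcripts lack a poly(A) tail, and close copies share reads. Of the 20, 6 were lower, each by at least 2-fold, and 1 was higher, which was not called with length removed. The median of -2.32 became -2.19 when groups at 0 were set to 3 counts. Hist2h4, a histone H4 gene, went from 2.29 and 2.18 to 0.318 and 0.279 CPM under the DC2.4 label and from 1.45 and 1.35 to 2.9 and 4.04 CPM under the 4T1 label (difference -4.16 ± 0.41).

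Genes of very large proteins were lower almost throughout. Of 44 tested, 38 were lower and 0 higher, with a median of -0.95, and with length removed 34 were lower with a median of -0.64. All 44 fell under the DC2.4 label, and 21 rose and 3 fell under the 4T1 label. The median exonic length of the list was 16.89 kb, so most of it lay in the part of the length range where the trend was largest. In the longest bin of 1037 genes, 267 were higher and 279 lower with length removed. Like the other lists, this one was chosen with earlier results of these data known, so its counts do not speak for long genes in general. Flna, which encodes the actin crosslinker filamin A, fell from 1583 and 1582 to 999 and 1003 CPM under the DC2.4 label and rose from 343 and 344 to 473 and 471 CPM under the 4T1 label (difference -1.07 ± 0.02, and -0.96 with length removed). Ahnak, a giant scaffold gene, fell from 656 and 666 to 343 and 342 CPM and rose from 234 and 226 to 267 and 266 CPM in the same order (difference -1.11 ± 0.03, and -0.74 with length removed).

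Against 15.1% lower and 16.0% higher over all genes tested, 9 were lower and 3 higher among 39 tested genes of TGF-beta signalling and matrix. Their median of -0.44 rested on low counts, since 22 of them stood under 1 CPM under the 4T1 label, and it was 0.13 without the first and -0.86 without the second uniSTING library labelled 4T1, and -1.36 without the first Mock library labelled 4T1. Thbs1, the gene of the matrix glycoprotein thrombospondin 1, fell from 1087 and 1085 to 811 and 817 CPM under the DC2.4 label and rose from 35.4 and 36.6 to 43.7 and 43.1 CPM under the 4T1 label (difference -0.63 ± 0.04). The laminin chain gene Lamc1 fell from 295 and 292 to 171 and 175 CPM under the DC2.4 label and had 266 to 274 CPM under the 4T1 label (difference -0.68 ± 0.04). The integrin chain gene Itgb1 was among the 3 higher members (0.22 ± 0.02). Of 40 tested Wnt pathway genes, 6 were higher and 12 lower, and 5 were higher and 6 lower with length removed, shares near the 13.7% and 14.2% of all genes in that fit. The co-receptor gene Lrp6 fell from 80.4 and 75 to 48.4 and 50.3 CPM under the DC2.4 label (difference -0.58 ± 0.07, and -0.34 with length removed), whereas Wls, needed to secrete Wnt ligands, rose there from 130 and 129 to 156 and 155 CPM (difference 0.30 ± 0.04).

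Stress lists were divided. Of 17 genes of the PERK and ATF4 branch, which answers amino acid shortage and endoplasmic reticulum stress, 11 were lower and 4 higher, while of 15 chaperone and IRE1 or ATF6 branch genes 8 were higher and 1 lower. The amino acid transporter gene Slc7a5 fell from 727 in both libraries to 439 and 434 CPM under the DC2.4 label and rose from 202 in both to 226 and 217 CPM under the 4T1 label (difference -0.82 ± 0.03). Trib3, a pseudokinase gene that ATF4 induces, moved alike, from 139 and 145 to 109 and 108 CPM and from 68.2 and 70.4 to 82.7 and 88.5 CPM (difference -0.65 ± 0.05). Atf3, a stress factor gene of the same branch, did the reverse, from 24.8 and 26.6 to 44.5 and 42.3 CPM and from 155 and 150 to 136 and 137 CPM (difference 0.95 ± 0.07). The chaperone genes Calr and Hspa5 had differences of 0.24 ± 0.03 and 0.15 ± 0.02, and that of Calr was 0.15 with length removed.

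Of 18 NRF2 targets, which defend against oxidants, 5 were higher and 4 lower. Over all genes tested, 16.0% were higher and 15.1% lower. The ferritin chain genes Fth1 and Ftl1 had differences of 0.43 ± 0.01 and 0.36 ± 0.02 (0.37 and 0.18 with length removed), Fth1 rising from 1355 and 1352 to 1680 and 1683 CPM under the DC2.4 label and falling from 14757 and 14729 to 14101 and 13958 CPM under the 4T1 label. Gclm, for a subunit of the enzyme that limits glutathione synthesis, was lower (-0.53 ± 0.06). Of 18 p53 targets, 6 were higher and 2 lower, beside the same shares over all genes tested. Among the higher ones, Mdm2, for the ligase that degrades p53, rose from 74.1 and 78.8 to 107 and 106 CPM under the DC2.4 label and from 198 and 200 to 216 and 220 CPM under the 4T1 label (difference 0.39 ± 0.04). The death receptor gene Fas had a difference of 1.13 ± 0.17, rising from 4.57 and 5.17 to 7.11 and 8.58 CPM and falling from 17.0 and 18.4 to 13.7 and 13.3 CPM. Sesn2, a stress-induced regulator of mTORC1, was lower (-0.60 ± 0.09).

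**Figure D4:**
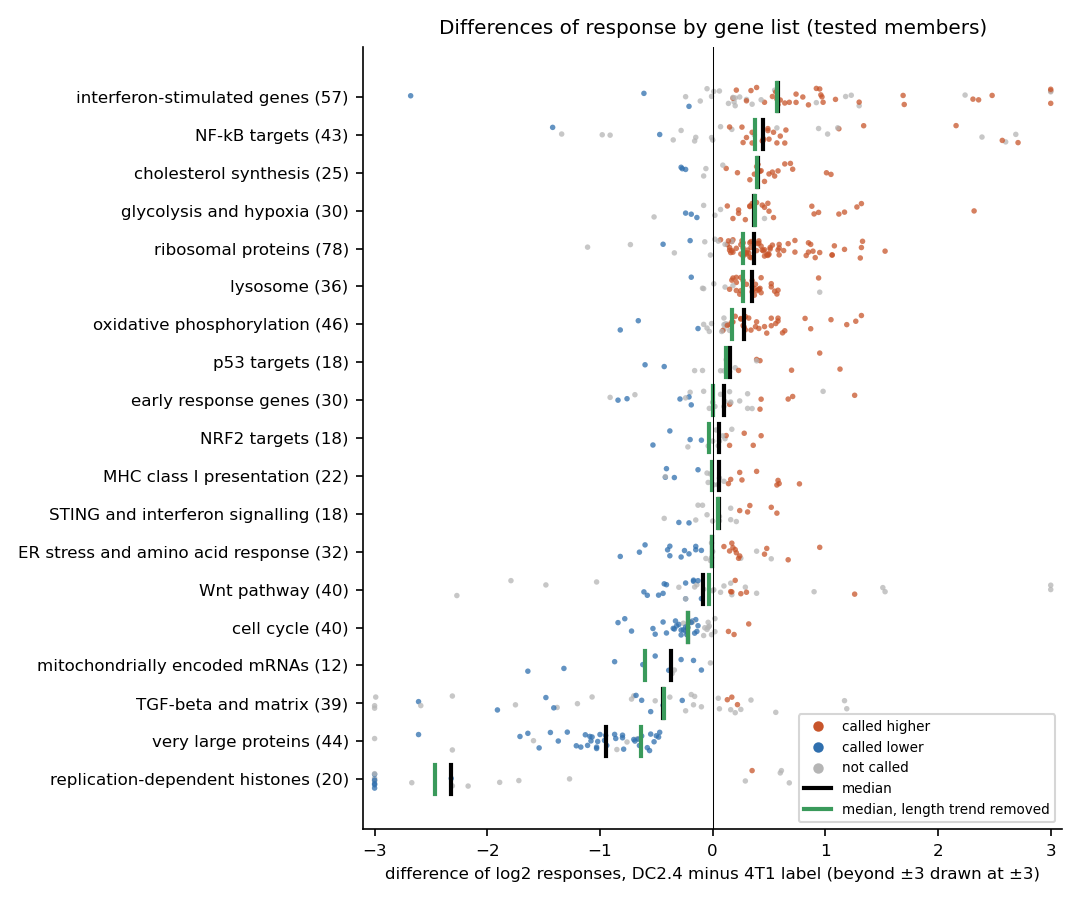
Difference of log2 responses, DC2.4 label minus 4T1 label, for each tested member of 19 gene lists (number tested in brackets); points are coloured by call, and the black and green bars are the medians with the length trend kept and removed. Interferon-stimulated genes have the highest median and histone genes the lowest, and the 2 bars stand farthest apart for very large proteins and mitochondrially encoded mRNAs.

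**Figure D5:**
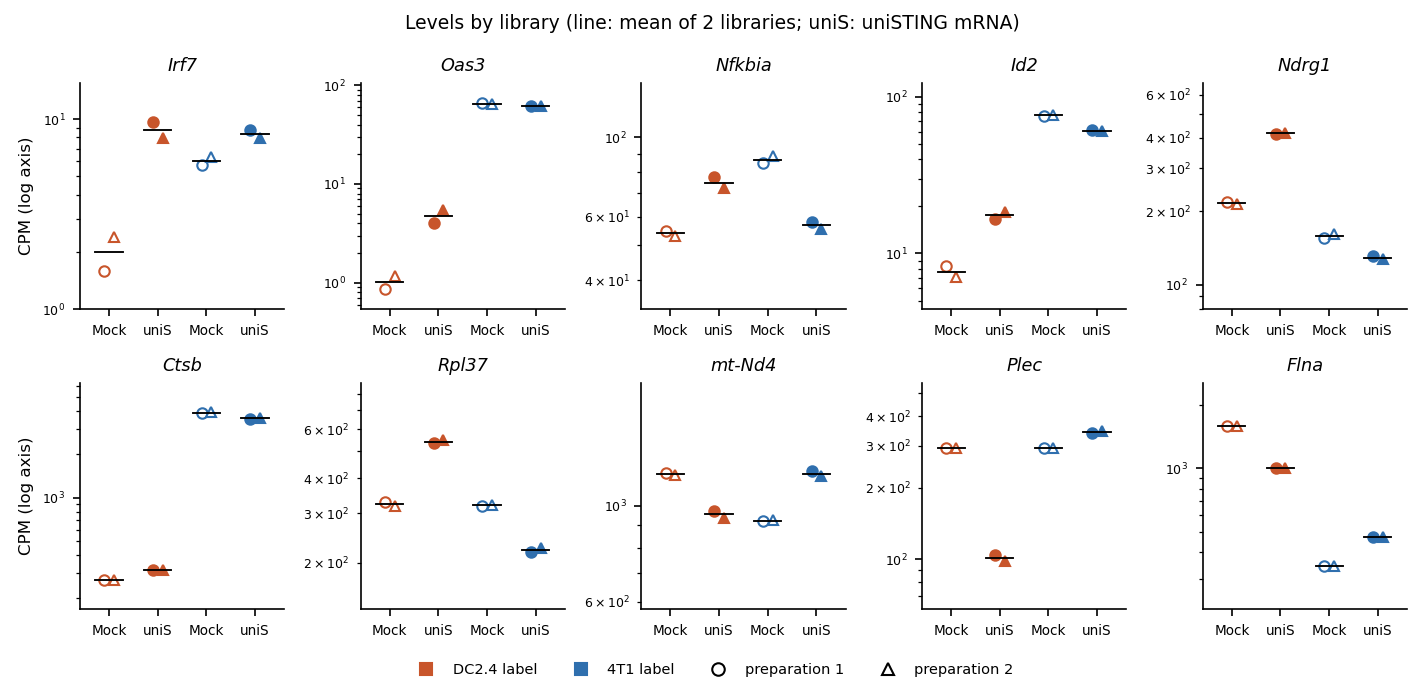
CPM on log axes in each of the 8 libraries for 10 genes, with the label by colour, Mock open and uniSTING filled, and preparation 1 as circles and 2 as triangles; the line is the mean of 2 libraries. Nfkbia, Id2, Ndrg1, Ctsb and Rpl37 rise under the DC2.4 label and fall under the 4T1 label, while mt-Nd4, Plec and Flna do the reverse.

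Genes called in opposite directions under the labels numbered 870 (5.85% of genes tested), of which 496 rose under the DC2.4 label. With length removed as well, 578 were called in opposite directions in both fits, 300 of them up and 278 down under the DC2.4 label. With the trend kept, 496 of all 14863 genes tested were up and 374 down under the DC2.4 label in this way. By list, those up numbered 33 of 78 ribosomal protein genes, 14 of 36 lysosomal genes, 12 of 46 nuclear respiratory chain genes and 6 of 43 NF-kB targets. Interferon-stimulated genes, with 3 of 57, were not far from the share over all genes. Those down under the DC2.4 label numbered 21 of 44 genes of very large proteins, 10 of 40 cell cycle genes and 6 of 12 mitochondrial mRNAs.

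Each set of cell identity markers was low under 1 of the labels, against the line that the label names. Of 19 tested epithelial markers, 17 stood under 1 CPM under the 4T1 label. Of 25 leukocyte markers, 18 stood under 1 CPM under the DC2.4 label, and these low levels limit what could be called. Of the 19 epithelial markers 1 was higher and 1 lower, and of the 25 leukocyte markers 2 were higher and 1 lower, and 0 of 9 tested transcripts of other tissues were called. Under the 4T1 label 4 leukocyte markers rose and 12 fell. The macrophage marker gene Cd68 was higher (0.94 ± 0.10), from 8.4 and 6.44 to 10.7 and 10.4 CPM under the DC2.4 label and from 1236 and 1266 to 956 and 974 CPM under the 4T1 label. Lcp1, an actin bundling gene of leukocytes, was higher (0.43 ± 0.03) and Itgb2, an integrin chain gene, lower (-0.41 ± 0.06). The epithelial factor gene Grhl2 was lower, falling from 60.7 and 64.4 to 53.2 and 50.3 CPM under the DC2.4 label and rising from 0.0559 and 0.0397 to 0.611 and 0.77 CPM under the 4T1 label. Summed leukocyte markers went from 12073 and 12069 to 11684 and 11679 CPM under the 4T1 label, and their part in the differences was not tested.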

How the data were processed

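Gene counts were analysed as the authors deposited them, 1 table of counts for each of 12 libraries. HISAT2 and GRCm39 are named in the submitters' processing notes, with no version of the aligner. Per the file headers, featureCounts (Subread 2.0.1) counted uniquely mapped read pairs over exons by gene, without a strand option, on Ensembl release 103. Genes with close copies lose or share counts, and overlapping or antisense genes cannot be told apart.

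The counts of all 12 libraries were fitted in edgeR 4.0.16 (R 4.3.3) as 6 group means, scaled by TMM and filtered with filterByExpr on the groups, which left 14863 genes. The quasi-likelihood F test was used, with p-values adjusted by Benjamini-Hochberg over all genes tested. The interaction contrast gave each difference, and SE is the difference over the square root of F. The length trend was a loess curve (degree 1, span 0.3, prior count 0.5) of each library over log2 length, in genes of at least 1 CPM on average, entered as an offset. On simulated counts with 100 genes changed 1.5-fold and 100 changed 3-fold (14574 genes), 85 and 100% were recovered and 3.14% of 191 calls were false. The changed genes were drawn from those of at least 5 CPM on average under each label, so the recovery does not cover lower genes. No difference between preparations other than depth was simulated. With a trend of -0.15 per doubling of length added under 1 label (14610 genes), 88.9% of 1711 calls were false with the trend kept and 6.22% of 193 with it removed.

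Genes named were, per direction, the 8 largest differences with length removed that passed in both fits with the same sign in both preparations and at least 5 CPM in the higher group under each label, without Gm and Rik models, pseudogenes or their copies, antisense genes or mitochondrial ones. Added were the 4 largest per direction called in opposite directions, up to 4 members per direction and list with the smallest adjusted p, and 14 fixed genes, and 7 interferon-stimulated genes were added after their values were seen. Some genes of the lists or the rule are not reported here. The members and the 23 lists were chosen with earlier results of these data known. Lists were described by counts and medians, with no list test. Gene IDs were matched to symbols (52093 of 53647) with a name table, and promoter windows were taken from RefSeq (GRCm38.p6, no coordinates carried over). Alternatives were DESeq2 1.42.0, its size factors, upper-quartile factors, limma-voom (limma 3.58.1), 3 other filters, the mRNA libraries alone, the preparation as a block with and without the length trend, and leaving out each library. Tables and figures used Python 3.11.15 and matplotlib 3.10.9.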

Additional observations from a re-analysis of the deposited data

Results flagged for a closer look

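The responses under the 2 labels differed by the interaction test for each gene named as a largest difference or as called in opposite directions. In the higher direction the differences of log2 responses were 2.32 for Ankrd37, 2.20 for Sumo2, 2.04 for Arrb1, 1.80 for Eno2, 1.69 for Irf7, 1.59 for Id2, 1.56 for Phf11d, 1.46 for Bst1 and 1.22 for Neat1. In the lower direction they were -1.71 for Plec, -1.64 for Lrp1, -1.55 for Slc22a21, -1.54 for Ubr4, -1.44 for Farp2, -1.41 for Tiam1, -1.07 for Inafm1 and -1.04 for Ppih.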

How the results depend on the processing

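Counts of higher and lower genes stayed within 1.5 times of 2377 and 2251 under every alternative run, with 1785 and 1772 by DESeq2 (1774 and 1767 shared) and 1898 to 2186 and 1850 to 1975 without 1 library. No scaling moved the median difference of all genes by over 0.04. The preparation numbers share no stated batch. The differences between preparations correlated across Mock and uniSTING (r = 0.79 under the DC2.4 label, 0.8 under the 4T1 label). This was over 9977 and 9887 genes of at least 5 CPM on average, which can be absent from preparation 2. Among genes with at least 50 counts in each library, removing what Mock and uniSTING shared left the mean chi-square at 1.74 and 2.03. Within groups it was 1.71 to 2.30, so little was shared in those genes. With the preparation as a block 2559 genes were higher and 2435 lower, and Tbk1 was called (0.16, edgeR adjusted p = 0.0458).

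Genes at least 2-fold higher numbered 207 with 1 CPM under each label required and 248 by DESeq2, and lower ones 126 and 165. Wnt pathway genes lower numbered 6 with length removed. The correlation with length was -0.33 in genes of at least 5 CPM, 0.01 with length removed, also with the block, and -0.29 to -0.27 without 1 library. The called difference of Ifitm3 was -0.01 with length removed, with and without the block, and the median of TGF-beta and matrix genes ranged from -1.36 to 0.13 without 1 library. Of 3028 alternative values of 160 named genes, 2887 kept their side of the threshold, 137 lost the call, 2 gained it and 2, of Ifitm3, lost it with a change of sign, within 30 genes. The sign changed for 7 values, of Ifitm3 and of Isg15, Tmem173 and Irf3, which were not called, and for 11 medians of 5 lists, of which 4 had medians within 0.09 of 0. Depth limits genes under 1 CPM under a label, and 2 libraries per group whose separate origin is not stated limit every p-value.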
